A study of Mus musculus with 13 samples.

Results

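Stem cells sorted as SLAM cells from the bone marrow of single mice were compared by genotype on Affymetrix exon arrays. The SLAM sorts made up 4 of the 13 arrays of the series: 2 from mice that carry PML-RARA in the cathepsin G locus (mCG-PR) and 2 from wild-type (WT) mice. The arrays were chosen by their titles. The other 9 arrays were KLS sorts, which served here for comparison only: 4 from WT mice of 12 or 13 weeks, 3 from mCG-PR mice of 6 weeks and 2 from mCG-PR mice of 13 weeks. Each array held RNA from the femurs and tibiae of 1 mouse.

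The mCG-PR SLAM cells came from mice of 7 weeks and the WT SLAM cells from mice of 6 weeks. All mice were labelled as strain Bl/6 Taconic. The mutant genotype label was mCG-PR N17, in which PML-RARA is expressed from the mouse cathepsin G gene (Ctsg, written Ctg in the design), and the controls were wild-type littermates. No treatment and no further allele is given in the labels for either genotype. Expression of the transgene therefore follows the activity of the Ctsg promoter, and no probe set for the fusion transcript itself was used here. The labels give neither the gates of the sorts nor the sex of the mice. Arrays of 1 group were separate mice, and n = 2 in each SLAM group throughout.

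SLAM sorting takes its name from the signalling lymphocyte activation molecule family of surface receptors. Marrow stem cells carry Slamf1 (CD150) and lack Cd48, and most of them rest outside the cell cycle. KLS cells carry Kit and Ly6a (Sca-1) but no lineage markers, and they hold multipotent progenitors besides stem cells. PML-RARA is the fusion protein of acute promyelocytic leukaemia, in which a retinoic acid receptor is joined to the PML nuclear body protein and represses genes with retinoid response elements. Cathepsin G is a protease of primary granules, and its promoter is known for its activity in promyelocytes, far downstream of the stem cell. The comparison asks how the stem cell transcriptome of young mice differs with this knock-in.

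A gene's level was the median log2 intensity of its probe sets on an array, and 10586 genes were tested. Differences are mCG-PR minus WT on the log2 scale, with the standard error (SE) of limma's fit, so 1 unit is a doubling. Levels are set side by side for the same gene only, since probe sets of different genes do not share a scale. The likeness of arrays within a genotype overlapped that between genotypes. Over the tested genes, Pearson's r was 0.821 between the mCG-PR arrays, 0.828 between the WT arrays, and 0.799 to 0.829 between the genotypes. The median absolute log2 difference was 0.367 and 0.373 within the genotypes and 0.368 to 0.390 between them. The median within-group SD of a gene was 0.325 in SLAM cells and 0.217 in KLS cells. Median intensities ran from 98.6 to 103.5 on the SLAM arrays.

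The SLAM groups also differed in Y-linked genes. Eif2s3y, a Y-linked translation factor, was at 3.49 and 3.61 in mCG-PR and at 8.36 and 8.93 in WT SLAM cells. Its difference of -5.10 ± 0.32, 34.2-fold lower, was seen in 16 of 16 probe sets and had the smallest adjusted p of the comparison, 0.101 in limma. Kdm5d, a Y-linked histone demethylase, was at 5.07 and 4.85 in mCG-PR and at 8.05 and 6.92 in WT. Both mCG-PR arrays were low and both WT arrays high for these genes. Within the SLAM arrays, genotype, age and whatever sets the Y-linked level cannot be told apart. In mCG-PR KLS cells of 6 weeks, Eif2s3y had a mean of 7.293 with an SD of 2.699. Kdm5d had a mean of 6.958 with an SD of 1.801 there. In WT KLS cells these SDs were 0.288 and 0.189. The Y-linked level thus varied between KLS arrays of the same genotype and age, and what set it was not tested. On the X chromosome, 301 genes were tested, around a median difference of -0.00442. Of these, 59 were higher and 59 lower without overlap of the arrays, 19.6% each, near the 16.4% and 18.8% of all tested genes. The X-linked partners of Y genes gave 0.37 ± 0.43 for Kdm6a, 0.44 ± 0.29 for Kdm5c, 0.93 ± 0.65 for Eif2s3x and -0.35 ± 0.29 for Ddx3x, none past the threshold.

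Of the SLAM markers, Cd48 separated all 4 sorts from KLS cells and Slamf1 did not. The clearest gap between genotypes among the markers was that of Slamf1. Slamf1 was at 6.21 and 6.63 in mCG-PR and at 7.68 and 7.47 in WT SLAM cells. The 9 KLS arrays lay between 5.17 and 6.32. Both WT arrays were thus above every KLS array, while 1 mCG-PR array was inside the KLS range and 1 above it. The genotype difference was -1.16 ± 0.31, with a limma adjusted p of 0.75, and 2 of 8 probe sets showed it without overlap of the arrays. Of all probe sets with 1 gene, 18% were higher and 16.6% lower without such overlap. With the mean of the probe sets in place of the median, the Slamf1 difference was -0.68. Cd48, the receptor that SLAM stem cells lack, was at 4.26 and 4.24 in mCG-PR and at 4.70 and 5.56 in WT, far below the KLS range of 8.28 to 9.61. By this marker all 4 sorts matched their label, and both mCG-PR arrays were the lower pair, by -0.88 with all arrays and -0.45 without WT replicate 2.

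Kit, the stem cell factor receptor, was at 10.51 and 10.30 in mCG-PR and at 9.71 and 10.09 in WT SLAM cells. Ly6a was at 8.85 and 9.77 against 8.76 and 9.63. Both genes lay in or close to the KLS range, and Ly6a overlapped between genotypes. Flt3, a cytokine receptor of multipotent and lymphoid-primed progenitors, was at 8.35 and 8.51 in mCG-PR and at 7.65 and 7.47 in WT. All 4 arrays were below the KLS range of 10.11 to 10.90, and the mCG-PR pair was the higher one, by 0.87 ± 0.28 (limma adjusted p = 0.773), with 12 of 28 probe sets higher and 2 lower. Cd34, which is low on adult stem cells, was at 6.87 and 8.72 against 7.59 and 8.79, all below the KLS range, with overlapping genotypes.

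RNA of Ctsg, the gene that holds the knock-in, was low in SLAM cells, and the level of the fusion transcript was not measured. Ctsg was at 6.00 and 5.72 in mCG-PR and at 6.22 and 7.48 in WT, against 8.10 to 9.54 in KLS cells. Every SLAM array was thus below every KLS array, and the mCG-PR pair was below the WT pair, with 3 of 10 probe sets lower without overlap and none higher. The difference was -0.99 ± 0.47 (limma adjusted p = 0.815), and it was -0.37 without WT replicate 2 and -1.62 without WT replicate 1. Pml was at 7.76 and 6.99 in mCG-PR and at 6.87 and 7.64 in WT. Rara, the retinoic acid receptor that the fusion contains, was at 6.46 and 6.42 against 6.16 and 6.86. Both fusion partners overlapped between the genotypes, with differences of 0.12 ± 0.43 and -0.07 ± 0.34.

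**Figure D1:**
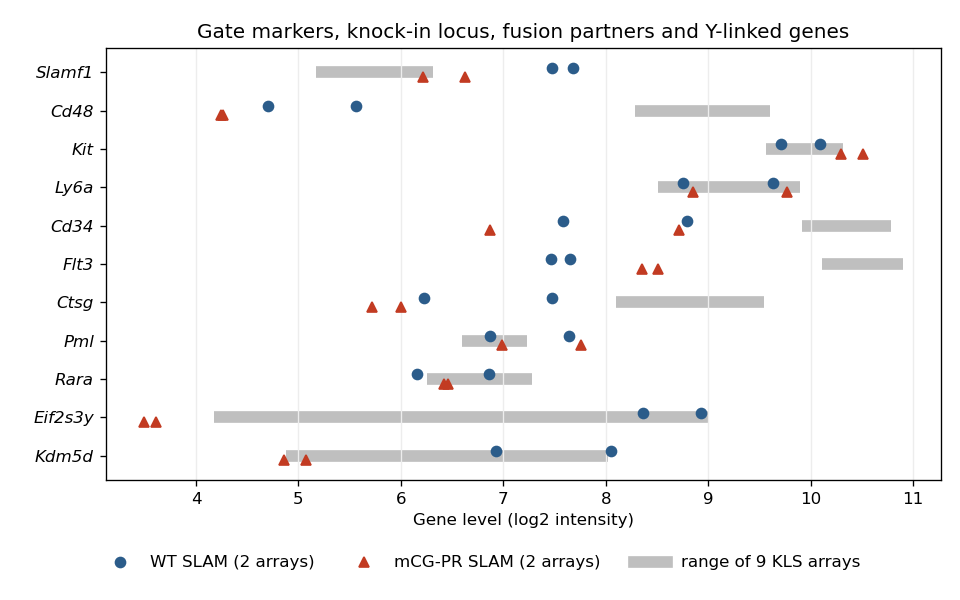
Levels (log2 intensity, x axis) of gate markers, the knock-in locus, the fusion partners and 2 Y-linked genes in each SLAM array, with the range of the 9 KLS arrays as grey bars. WT Slamf1 sits at 7.47 and 7.68, right of the KLS bar, mCG-PR Slamf1 at 6.21 and 6.63, and Cd48 is left of its KLS bar on all 4 SLAM arrays.

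No gene passed an adjusted p of 0.05 in limma's fit on the 4 arrays (0 of 10586, 0%). At an unadjusted p under 0.05 there were 664 genes, 6.27% of those tested, against 529 that the threshold alone gives; 232 were higher (2.19%) and 432 lower (4.08%) in mCG-PR. With 2 arrays a group, an exact permutation test has 6 splits and cannot give a two-sided p below 0.333. A fit that shared the spread of all 13 arrays called 275 genes (2.6%), 92 higher (0.869%) and 183 lower (1.73%). When the SLAM arrays were given their own weight, which came to 0.45 against 1.43 for KLS arrays, 3 genes passed (0.0283%): Fkbp7, Ogfrl1 and Rras2, with adjusted p of 0.00918, 0.049 and 0.049 in limma. The values of single genes are therefore given as descriptions, in which a gene counts as separated when both arrays of 1 genotype lie above both of the other. Of all tested genes, 16.4% were separated with mCG-PR higher and 18.8% with mCG-PR lower, 35.2% in all. A gene without any difference is separated in each direction by 1 of the 6 splits. These shares are thus close to those without a difference. A difference over 1 log2 unit was found for 200 genes with mCG-PR higher (1.89%) and for 438 with mCG-PR lower (4.14%).

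Among the genes with mCG-PR higher, Rras2 had the widest gap. Rras2, a small GTPase of the Ras family, was at 8.28 and 8.75 in mCG-PR and at 5.59 and 5.28 in WT SLAM cells. The KLS arrays lay between these pairs, from 6.22 to 7.23. The difference of 3.08 ± 0.32 is 8.45-fold, with a limma adjusted p of 0.699 on 4 arrays. It was shown without overlap by 5 of 8 probe sets, and leaving out any 1 SLAM array kept it between 2.84 and 3.32. Since Rras2 was chosen by its gap of 2.68 on these arrays, no such difference could fall below that gap. Hoxa6, a homeobox gene of the cluster active in stem cells and progenitors, was at 8.48 and 7.86 in mCG-PR and at 5.95 and 6.06 in WT. Only the WT pair lay in the KLS range of 5.69 to 6.71, and 3 of 3 probe sets were separated; the difference of 2.17 ± 0.34 is 4.49-fold, and was 1.27 with the mean of the probe sets.

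Laptm5, a lysosomal membrane protein of blood cells, was at 11.01 and 10.93 in mCG-PR and at 9.32 and 9.16 in WT. Its mCG-PR pair was above and its WT pair below the KLS range of 9.58 to 10.64, with 10 of 12 probe sets higher and 1 lower. Cbx8, a chromodomain subunit of Polycomb repressive complex 1, was at 8.58 and 8.25 against 6.68 and 6.56. Its WT pair lay in the KLS range of 6.38 to 7.16, and the difference was 1.80 ± 0.29, or 1.26 with the mean of the probe sets. Of its 5 probe sets, 4 were higher and 1 lower. Cd274, the checkpoint ligand PD-L1, was at 7.88 and 7.97 against 6.25 and 6.46. Mmp16, a membrane-bound matrix metalloproteinase, was at 8.03 and 8.06 against 6.60 and 6.58, with all 4 arrays above the KLS range of 5.01 to 6.00. Here 9 of 15 probe sets were higher and none lower.

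Parp14, an ADP-ribosyltransferase, differed by 1.83 ± 0.29, and its mCG-PR levels of 8.02 and 8.27 lay in the KLS range while the WT levels of 6.20 and 6.44 lay below it. Mid1ip1, a regulator of fatty acid synthesis on the X chromosome, differed by 1.91 ± 0.34. The ubiquitin-conjugating enzyme Ube2e2 and the glutathione transferase Gstm7 differed by 1.69 ± 0.28 and 1.83 ± 0.32, and the mean of the probe sets gave 1.00 for Ube2e2. Across these 10 genes the limma adjusted p ran from 0.699 to 0.73. In 8 of the 10, both mCG-PR arrays were above all 9 KLS arrays.

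Among the genes with mCG-PR lower, Fkbp7 had the widest gap outside the Y chromosome. Fkbp7, a peptidyl-prolyl isomerase of the endoplasmic reticulum, was at 4.87 and 4.70 in mCG-PR and at 7.88 and 9.04 in WT SLAM cells. The KLS arrays lay between, from 6.18 to 7.60. The difference of -3.68 ± 0.45 is 12.8-fold (limma adjusted p = 0.73 on 4 arrays). It rested on 3 of 5 probe sets, whose single differences ran from -5.05 to -0.25, so the difference was uneven along the gene. Ogfrl1, which encodes a protein like the opioid growth factor receptor, was at 5.05 and 5.18 against 7.51 and 7.99. Here the WT pair lay in the KLS range of 6.87 to 8.10 and the mCG-PR pair far below it, in 3 of 3 probe sets, with a difference of -2.64 ± 0.31, 6.22-fold.

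Tspan8, a tetraspanin of the cell surface, was at 5.39 and 5.41 in mCG-PR and at 7.73 and 8.78 in WT, with the WT pair above the KLS range of 5.41 to 7.50. Med21, a Mediator subunit, was at 6.11 and 6.08 against 8.58 and 8.18. Tpm4, an actin-binding tropomyosin, was at 7.12 and 7.82 against 10.02 and 9.58. For both Med21 and Tpm4 the WT arrays lay in the KLS range and the mCG-PR arrays below it. Coq10b, a coenzyme Q-binding protein of mitochondria, was at 4.51 and 5.12 against 7.00 and 8.66. With the mean of the probe sets, the differences of Tspan8 and Coq10b shrank from -2.86 to -1.87 and from -3.02 to -1.68. Svbp, a vasohibin-binding peptide, and Phospho1, a phosphatase, differed by -2.12 ± 0.31 and -1.94 ± 0.31. The limma adjusted p of these autosomal genes ran from 0.73 to 0.737. Of the 10 lower genes, Y-linked ones included, 8 had both mCG-PR arrays below all 9 KLS arrays.

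**Figure D2:**
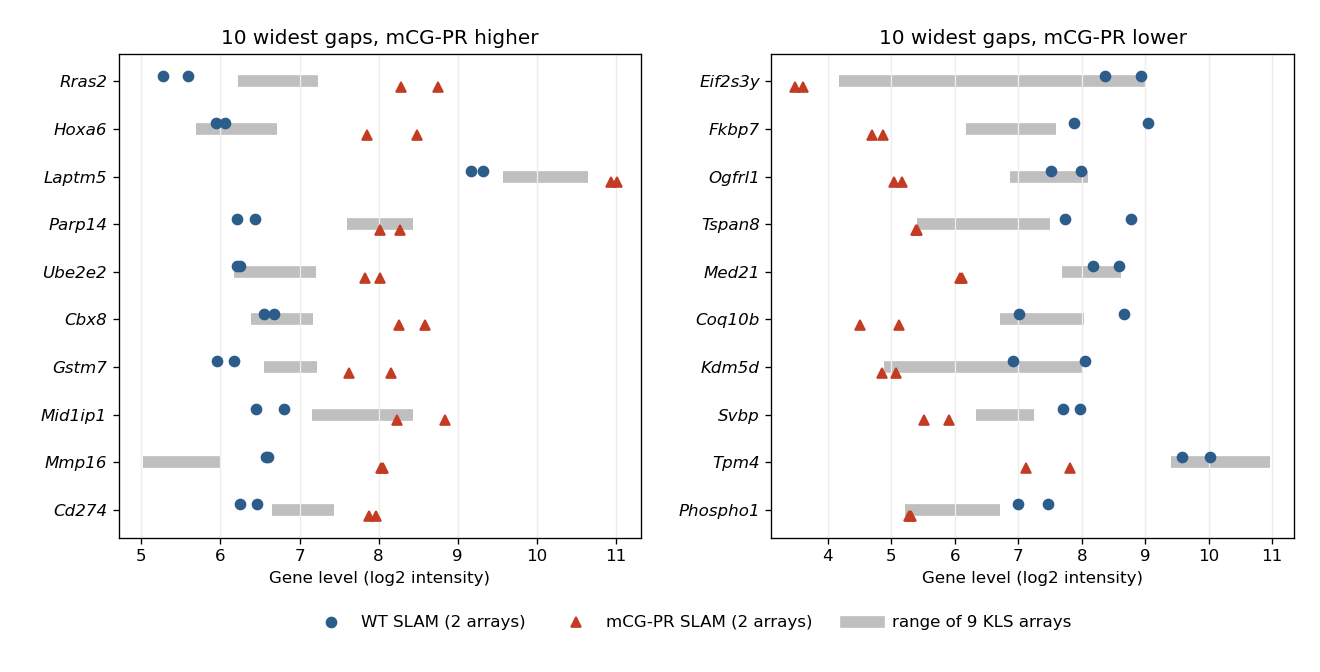
Levels (log2 intensity, x axes) of the 10 genes with the widest gap between the genotypes in each direction, 1 point per SLAM array, with the range of the 9 KLS arrays in grey. Rras2 shows mCG-PR at 8.28 and 8.75 against WT at 5.59 and 5.28, and Fkbp7 shows mCG-PR at 4.87 and 4.70 against WT at 7.88 and 9.04.

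The promoters of 4 of these genes are printed to show what lies at the starts of the genes with the widest gaps and of those with a retinoid half-site. Each is the RefSeq window of 300 bases on GRCm38.p6, from 250 bases before to 50 after the start, read along the gene; the array annotation itself used mm9. Capitals mark AGGTCA, the half-site of retinoid receptors, GGGCGG, a GC box, and CCAAT, on either strand; none of these overlaps another. Fkbp7 lies at chr2:76673049-76673348 on the minus strand, Rras2 at chr7:114117732-114118031 on the minus strand, Tspan8 at chr10:115817034-115817333 on the plus strand and Tpm4 at chr8:72135038-72135337 on the plus strand.
Fkbp7: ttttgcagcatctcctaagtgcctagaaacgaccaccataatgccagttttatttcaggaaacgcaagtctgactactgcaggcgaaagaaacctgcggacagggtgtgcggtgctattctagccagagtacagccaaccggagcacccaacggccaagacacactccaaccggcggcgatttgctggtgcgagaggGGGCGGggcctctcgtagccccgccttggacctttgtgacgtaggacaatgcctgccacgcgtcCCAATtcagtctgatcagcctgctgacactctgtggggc
Rras2: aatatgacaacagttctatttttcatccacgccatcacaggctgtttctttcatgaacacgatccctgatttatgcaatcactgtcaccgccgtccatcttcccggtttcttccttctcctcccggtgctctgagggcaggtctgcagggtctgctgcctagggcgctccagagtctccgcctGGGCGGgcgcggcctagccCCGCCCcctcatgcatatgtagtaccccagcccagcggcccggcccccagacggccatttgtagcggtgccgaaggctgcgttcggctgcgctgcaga
Tspan8: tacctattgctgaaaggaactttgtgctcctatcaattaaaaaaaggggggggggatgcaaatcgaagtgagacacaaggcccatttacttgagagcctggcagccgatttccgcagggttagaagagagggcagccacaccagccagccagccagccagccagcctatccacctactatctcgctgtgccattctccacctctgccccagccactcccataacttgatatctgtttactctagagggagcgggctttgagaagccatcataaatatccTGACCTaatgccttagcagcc
Tpm4: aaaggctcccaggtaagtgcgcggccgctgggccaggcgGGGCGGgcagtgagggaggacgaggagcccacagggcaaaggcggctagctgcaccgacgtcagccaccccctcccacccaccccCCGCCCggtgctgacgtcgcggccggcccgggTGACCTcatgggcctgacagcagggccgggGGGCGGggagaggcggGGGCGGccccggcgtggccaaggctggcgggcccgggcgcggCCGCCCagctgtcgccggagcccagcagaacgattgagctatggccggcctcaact
The windows of Tspan8 and Tpm4 hold 1 AGGTCA each, and those of Fkbp7 and Rras2 hold none. Of the 20 genes with the widest gaps, 17 had a window and these 2 held the half-site, against 16% of all 27025 promoter windows. GC boxes numbered 1 in Fkbp7, 2 in Rras2 and 5 in Tpm4, and 35.9% of all windows hold at least 1. CCAAT stood once in Fkbp7 and in 37.9% of all windows. A pair of half-sites spaced by 2 or by 5 bases on 1 strand was found in 2 of all windows for each spacing.

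Fkbp7 and Ogfrl1 had the smallest p for a genotype difference that was not the same in SLAM and KLS cells, though not the largest sizes: Eif2s3y gave -3.75 with a limma adjusted p of 0.644 and Coq10b -3.35 with 0.214. In KLS cells, mCG-PR mice of 6 weeks were set against WT mice of 12 or 13 weeks, so that age and genotype cannot be told apart there. The genotype difference in SLAM cells minus that in KLS cells was tested as an interaction over all 13 arrays, with separate weights for the populations. In limma, 2 genes passed (0.0189%), while 890 had an unadjusted p under 0.05 (8.41%); without the weights 107 passed (1.01%). For Fkbp7 the interaction was -3.55 ± 0.50 with an adjusted p of 0.0386, and its KLS difference was -0.12 ± 0.20. For Ogfrl1 it was -2.99 ± 0.46 with an adjusted p of 0.047, and its KLS difference was 0.35 ± 0.18. Both calls depended on single arrays. Without WT replicate 1 the adjusted p of Fkbp7 was 0.0106, but without WT replicate 2, mCG-PR replicate 1 or mCG-PR replicate 2 it was 0.135, 0.0854 and 0.164. For Ogfrl1 the same fits in limma gave an adjusted p between 0.0583 and 0.173. Its sign and that of Fkbp7 stayed negative in all of them, which the width of their gaps in SLAM cells fixed beforehand.

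Among genes with a positive interaction, Rras2 had the smallest p, with 2.98 ± 0.53 and an adjusted p of 0.127 in limma. Hoxa6, Gstm7 and Cd274 gave 2.44, 2.00 and 1.78, with adjusted p of 0.214, 0.165 and 0.227. Dlg2, a synaptic scaffold protein, was at 7.61 and 7.77 in mCG-PR and at 6.56 and 5.47 in WT SLAM cells, and its interaction was 2.34. On the negative side stood Dscc1, a factor of sister chromatid cohesion, Cep55, which acts in the last step of cell division, and Golim4, a Golgi membrane protein. Dscc1 was at 4.88 and 4.10 in mCG-PR and at 7.03 and 6.13 in WT, and all 4 values were below the KLS range of 7.46 to 8.61. The Cep55 levels were 4.69 and 4.80 against 6.63 and 6.26, also below the KLS range. With the mean of the probe sets the SLAM differences of Cep55 and Dlg2 were -0.90 and 0.96 in place of -1.70 and 1.67. In these KLS cells all 3 differed in the other direction, by 0.45 to 0.55, and none of the interactions passed.

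**Figure D3:**
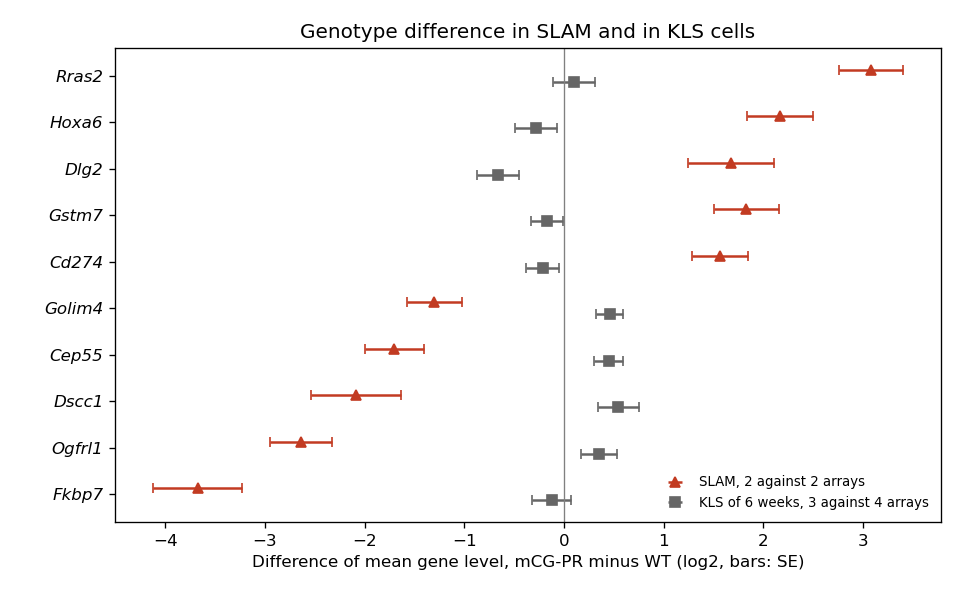
Genotype difference (mCG-PR minus WT, log2, x axis) of the 10 genes with the smallest interaction p, in SLAM cells (triangles, 2 against 2 arrays, fit on 4 arrays) and in KLS cells of 6 weeks (squares, 3 against 4 arrays, weighted fit), with bars of 1 SE. Fkbp7 is at -3.68 in SLAM and -0.12 in KLS cells, and Rras2 at 3.08 and 0.10.

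The stem cell genes had a median close to that of all genes, between -0.13 and 0.01 when any 1 SLAM array was left out. Of the long-term stem cell list, 33 of 38 genes were tested, with a median difference of -0.01 beside -0.02 for all genes. Array means of the list were 8.14 and 8.23 in mCG-PR and 8.28 and 8.28 in WT, all above the 7.55 to 7.80 of KLS cells. Without overlap, 4 genes were higher (12.1%) and 10 lower (30.3%), beside 16.4% and 18.8% of all genes. Besides Slamf1, the lower ones included Tek, the angiopoietin receptor that holds stem cells at rest, at 6.07 and 6.61 in mCG-PR and at 7.73 and 7.37 in WT. Pdzk1ip1, a stem cell marker, was at 7.73 and 7.66 against 8.78 and 8.78. For both, the WT pair was above every KLS array, and the Pdzk1ip1 difference of -1.08 was -0.58 with the mean of the probe sets. Hlf and Meis1, transcription factors of stem cell identity, differed by 0.40 and 0.09 and overlapped between genotypes. Procr, the EPCR marker of stem cells, differed by 1.11 but spread from 7.00 to 8.80 in WT alone.

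For stem cell transcription factors the median over 24 tested genes was -0.01, and ran from -0.09 to 0.17 when 1 array was left out. Without overlap, 5 were higher (20.8%) and 2 lower (8.33%), beside 16.4% and 18.8% of all genes. Prdm16, which stem cells need for their maintenance, was at 7.86 and 7.84 in mCG-PR and at 7.55 and 7.36 in WT. Zfp521 and Ikzf2 were higher by 0.66 ± 0.32 and 0.79 ± 0.30. Their array pairs were separated, and none of these genes passed the test.

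The Hox, Meis and Pbx list, with 20 tested genes, had a median of 0.12, which ran from -0.04 without mCG-PR replicate 2 to 0.22 without WT replicate 1. Of the 20, 5 were higher and 3 lower without overlap, 25% and 15% beside 16.4% and 18.8% of all genes. Hoxa5 was at 9.57 and 9.33 in mCG-PR and at 6.86 and 8.57 in WT, with 1 of 5 probe sets separated. Hoxb4, known for expanding stem cells when overexpressed, was at 7.86 and 8.70 against 6.45 and 7.76. The pairs were separated by a narrow margin for Hoxb4 and a wider one for Hoxa5, and without WT replicate 1 their differences of 1.17 and 1.74 were 0.52 and 0.88. Hoxa9 differed by 0.53 ± 0.35. Pbx2, a partner of Hox proteins, was the lowest of the list at -0.89 ± 0.38.

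Granule and neutrophil genes were lower in mCG-PR by median, and much of that difference came with 1 WT array. Of 13 tested genes of the primary granule list, 1 was higher and 4 lower without overlap. These are 7.69% and 30.8%, beside 16.4% and 18.8% of all genes. The list had a median of -0.43. Its array means were 7.28 and 7.22 in mCG-PR and 7.23 and 8.25 in WT. WT replicate 2 stood apart, and without it the median was 0.21. Late neutrophil genes, 19 tested, had a median of -1.28 and array means of 8.02 and 7.39 against 7.96 and 9.57. Without WT replicate 2 that median was -0.26, and the mean of 9.57 exceeded the 7.64 to 8.35 of the KLS arrays. In bulk RNA, fewer cells of a type and less RNA per cell cannot be told apart, and the part of such cells in any other difference was not tested.

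Single genes show the same array. Mpo, the peroxidase of primary granules, was at 6.38 and 6.36 in mCG-PR and at 7.02 and 9.81 in WT. Ngp, a secondary granule protein, was at 8.66 and 6.55 against 9.27 and 12.05. Mcpt8, a basophil protease, was at 5.57 and 5.73 against 5.65 and 8.90. In all 3 the highest value was that of WT replicate 2. Ltf, lactoferrin, was also high in WT replicate 1, with 5.66 and 6.60 in mCG-PR against 7.75 and 9.51 in WT and 14 of 21 probe sets lower. Camp, the cathelicidin, was at 8.28 and 8.33 against 9.24 and 10.75, with 5 of 5 probe sets lower. These genes were separated with either WT array, and their limma adjusted p were 0.75 for Ltf and 0.773 for Camp.

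Markers of other mature lineages were mostly below the all-gene median as well. Of the erythroid list, 7 of 15 genes were lower without overlap (46.7%) and none higher, beside 18.8% and 16.4% of all genes. The list median was -0.31, or -0.18 with the mean of the probe sets. Hemgn, a nuclear protein of erythroid precursors, was at 7.38 and 6.29 in mCG-PR and at 7.68 and 9.05 in WT. Of the megakaryocyte list, 6 of 15 were lower (40%) and none higher, against the same shares of all genes. Its median of -0.28 was -0.02 with the mean of the probe sets. Pf4, platelet factor 4, was at 6.95 and 7.02 against 7.99 and 8.11, with 5 of 5 probe sets lower, while Vwf differed by -0.36. Both WT arrays were high for Pf4, so no single array carried it.

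Macrophage genes had a median of -0.51 over 12 tested genes, which was -0.11 without WT replicate 2. Ctsb, a lysosomal protease, was at 8.24 and 7.36 in mCG-PR and at 8.74 and 8.69 in WT. Stromal genes had a median of -0.18, which ran from -0.37 without mCG-PR replicate 2 to -0.09 without WT replicate 2, and here WT replicate 1 held the highest mean, 7.21. Sparc, a matrix glycoprotein, was at 6.56 and 6.49 against 8.86 and 7.56, and the niche chemokine Cxcl12 at 5.77 and 5.43 against 7.80 and 5.98. The high value of both was that of WT replicate 1, without which the differences of -1.68 and -1.29 were -1.03 and -0.37. B cell genes gave -0.33 over 8 genes, and 0.16 without WT replicate 2. Of 12 T and NK cell genes, 6 were higher and 4 lower without overlap (50% and 33.3%, beside 16.4% and 18.8% of all genes). They gave a median of 0.40. That median was 0.24 without mCG-PR replicate 1, 0.14 without mCG-PR replicate 2 and 0.11 with the mean of the probe sets. Ccl5, a chemokine of T cells, was at 6.14 and 6.09 against 7.76 and 7.08, and Gzma, a granzyme, differed by 0.94 ± 0.28, or by 0.27 with the mean of the probe sets.

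Progenitor genes were far below KLS cells on every SLAM array, with list means of 6.72 to 7.29 against 8.61 to 9.42. Their median difference of -0.34 over 15 tested genes was 0.20 without WT replicate 2 and 0.11 without mCG-PR replicate 2. Ly86, the partner of a Toll-like receptor homologue, was at 5.35 and 6.18 in mCG-PR and at 7.26 and 6.94 in WT. Satb1, a chromatin organiser of lymphoid priming, was at 9.53 and 8.11 against 7.59 and 8.17, with overlapping genotypes. Monocyte and dendritic cell genes had a median of -0.23 over 21, and of -0.02 without WT replicate 2. Without overlap, 2 were higher and 6 lower (9.52% and 28.6%, beside 16.4% and 18.8% of all genes).

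**Figure D4:**
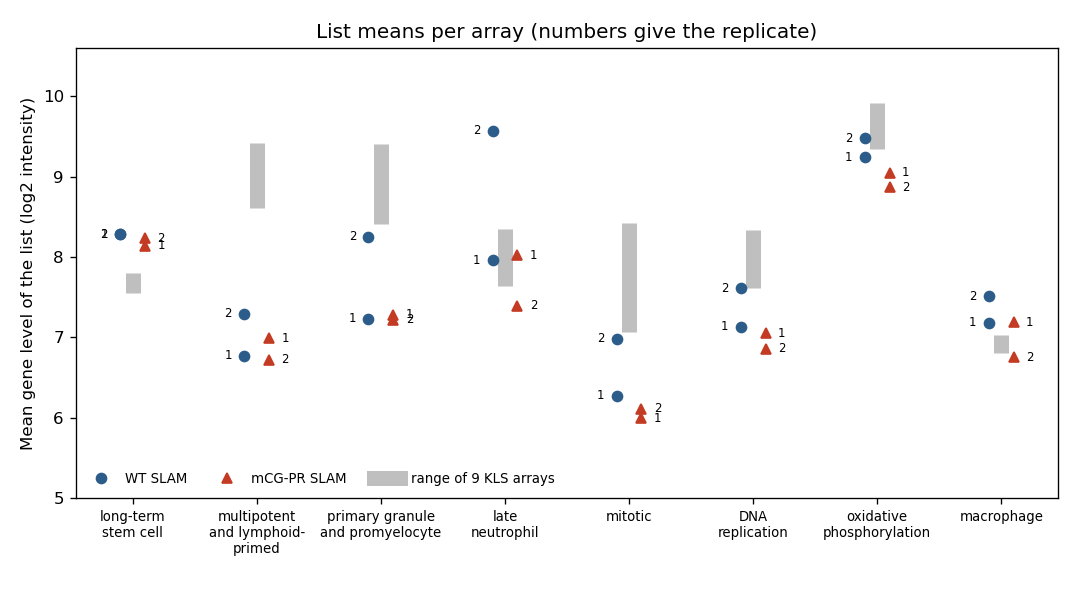
Mean level (log2 intensity, y axis) of 8 gene lists on each SLAM array, numbered by replicate, with the range of the 9 KLS arrays in grey. For late neutrophil genes WT replicate 2 is at 9.57 and the other 3 SLAM arrays are between 7.39 and 8.02, while for mitotic genes both mCG-PR arrays, at 5.99 and 6.11, are below both WT arrays, at 6.27 and 6.98.

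Mitotic genes were low in both mCG-PR arrays. Of 30 tested, 25 had a negative difference, 15 were lower without overlap (50%, against 18.8% of all genes) and none were higher. Array means were 5.99 and 6.11 in mCG-PR and 6.27 and 6.98 in WT, all below the KLS range of 7.07 to 8.42. The filter used the mean over all 13 arrays, so these genes could pass it by their KLS levels. In SLAM cells the list thus lay near the filter's cut of log2 6.0, where levels are low. The mCG-PR levels of Cenpe, Prc1 and Hmmr given here were under that cut. The median of -0.57 was -0.28 without WT replicate 2 and -0.88 without WT replicate 1. Cenpe, a kinetochore motor, was at 4.90 and 4.60 in mCG-PR and at 5.77 and 6.46 in WT, with 7 of 47 probe sets higher and 12 lower. Prc1, which bundles the spindle midzone, was at 5.57 and 5.31 against 6.44 and 6.63, with 2 of 19 higher and 11 lower. Hmmr, a spindle protein, was at 4.98 and 3.61 against 6.02 and 6.27, with 12 of 19 lower and none higher. All 3 pairs were separated, and the mCG-PR arrays were below every KLS array. Mki67, the proliferation marker, was at 7.71 and 8.48 against 8.63 and 10.48. Foxm1, an activator of mitotic genes, went the other way at 0.92 and overlapped.

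DNA replication genes shared the direction, with 27 of 32 negative and a median of -0.30. Without overlap, 2 were higher and 9 lower (6.25% and 28.1%, beside 16.4% and 18.8% of all genes). Without WT replicate 2 the median was -0.09. Tk1, thymidine kinase, was at 6.54 and 6.78 in mCG-PR and at 7.61 and 8.24 in WT. Mcm5, a subunit of the replicative helicase, was at 6.64 and 7.07 against 7.81 and 7.61, with 13 of 19 probe sets lower and none higher. Both mCG-PR arrays were the low ones. In mCG-PR KLS cells of 6 weeks the same lists had positive medians, 0.64 for mitotic and 0.36 for DNA replication genes, beside 0.11 for all genes. Those KLS cells were set against WT KLS cells of 12 or 13 weeks, so age and genotype cannot be told apart there.

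Inhibitors of the cell cycle and quiescence genes had a median of 0.17 over 21 tested genes. Of these, 6 were higher and 4 lower without overlap (28.6% and 19%, beside 16.4% and 18.8% of all genes). Cdkn1b, the inhibitor p27, was at 7.60 and 7.58 in mCG-PR and at 8.36 and 8.12 in WT. Cdkn1a, the inhibitor p21, was at 6.18 and 6.90 against 5.97 and 5.88. These inhibitors thus lay in opposite directions, and the list median was -0.09 both without mCG-PR replicate 2 and with the mean of the probe sets.

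Subunits of the respiratory chain were lower in mCG-PR in most cases. Of 39 tested oxidative phosphorylation genes, 30 were negative and the median was -0.44. Without overlap, 19 were lower (48.7%) and 4 higher (10.3%), beside 18.8% and 16.4% of all genes. Array means were 9.05 and 8.87 in mCG-PR and 9.24 and 9.48 in WT, with a KLS range of 9.34 to 9.92. The median stayed between -0.62 and -0.28 when any 1 SLAM array was left out, and was -0.25 after quantile normalisation. Atp5o, a subunit of ATP synthase, was at 7.88 and 8.18 in mCG-PR and at 9.25 and 9.67 in WT. Cox7b, a cytochrome c oxidase subunit, was at 9.66 and 8.87 against 10.18 and 10.79. Ndufb2 and Ndufs7, subunits of complex I, differed by -0.94 ± 0.28 and -0.91 ± 0.28, with 5 probe sets of each lower and none higher, and Ndufs7 was at -0.41 with the mean of the probe sets. None of these genes passed (limma adjusted p from 0.75 to 0.778).

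Ribosomal protein genes gave 15 lower (68.2%, beside 18.8% of all genes) and none higher without overlap among 22 tested. But their median was only -0.14 and turned to 0.02 after quantile normalisation. Rpl22 was at 11.19 and 11.17 in mCG-PR and at 11.64 and 11.64 in WT, with 6 of 6 probe sets lower. The differences of this list were small.

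Ras family genes, Rras2 among them, went both ways, with 11 positive and 11 negative of 22 and a median of -0.02. Mras, a close relative of Rras2, was at 8.53 and 9.23 in mCG-PR and at 5.57 and 7.50 in WT, a difference of 2.34 ± 0.68 that was 1.38 without WT replicate 1. Nras was at 8.19 and 9.45 against 10.04 and 10.08. Rasa1, a GTPase-activating protein that switches Ras off, was at 7.78 and 8.04 against 9.21 and 8.61. Mras was thus above, and Nras and Rasa1 below, their WT pairs, with limma adjusted p from 0.773 to 0.788.

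Polycomb genes, Cbx8 among the higher ones, had 7 lower and 3 higher without overlap of 21 (33.3% and 14.3%). Of all genes, 18.8% were lower and 16.4% higher. The list median of -0.18 was -0.05 after quantile normalisation. Suz12, a core subunit of complex 2, was at 7.73 and 7.78 in mCG-PR and at 8.50 and 8.62 in WT, but of its 22 probe sets 3 were higher and 3 lower. Ring1, a ubiquitin ligase of complex 1, was at 5.89 and 6.41 against 6.97 and 7.19, with 2 of 12 probe sets lower and none higher. Pcgf3, a ring finger partner of complex 1, differed by -1.02 ± 0.31, with 1 of 18 higher and 9 lower. In all 3 both mCG-PR arrays were the low ones.

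In the PML body and corepressor list, 3 of 17 genes were higher and 4 lower without overlap. These are 17.6% and 23.5%, beside 16.4% and 18.8% of all genes. The list median was 0.06. It was -0.26 without WT replicate 1 and 0.41 without WT replicate 2. Sp100, a nuclear body protein beside PML, was at 9.003 and 9.146 in mCG-PR and at 10.21 and 9.92 in WT, with 7 of 15 probe sets lower and none higher. Dnmt3a, a DNA methyltransferase, differed by -0.58 ± 0.28, and Suv39h1, a histone methyltransferase, by 1.08 ± 0.41; these were -0.25 with the mean of the probe sets and 0.60 without WT replicate 1. The retinoic acid list had 13 of 25 genes above the filter, and a median of -0.07 that was 0.04 without mCG-PR replicate 1. Of the 13, 3 were lower (23.1%) and none higher without overlap. Aldh1a1, which makes retinoic acid, was at 5.90 and 6.19 against 6.92 and 6.52. Its pairs were separated, while Rarb and Rarg differed by 0.20 and -0.12.

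Immediate early genes had 12 of 24 lower without overlap (50%) and 3 higher (12.5%), beside 18.8% and 16.4% of all genes. Their median of -0.33 stayed between -0.40 and -0.33 when any 1 SLAM array was left out. Jun was at 8.15 and 7.90 in mCG-PR and at 9.18 and 8.91 in WT. Nr4a1, a nuclear receptor, was at 7.53 and 6.76 against 8.27 and 8.32, with 11 of 12 probe sets lower. Ccl3, a chemokine of the same list, went the other way, at 8.30 and 7.38 against 6.80 and 6.40. The 3 genes were separated. The Jun difference of -1.02 was -0.60 with the mean of the probe sets, that of Nr4a1, -1.15, was -0.76 without mCG-PR replicate 2, and that of Ccl3, 1.24, was 0.78 without mCG-PR replicate 1. Their limma adjusted p were 0.773 to 0.777. The p53 targets had a median of -0.18 over 16 genes, which was 0.03 with the mean of the probe sets and -0.65 with the filter at the 50th percentile. Interferon response genes gave 0.09 over 19, -0.09 without WT replicate 1 and 0.26 without WT replicate 2. Of them, 2 were higher and 2 lower without overlap (10.5% each), with Ifi27 at 6.41 and 6.50 against 7.54 and 7.57.

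Apoptosis genes held 2 of the clearer single differences. Xiap, an inhibitor of caspases on the X chromosome, was at 7.39 and 7.06 in mCG-PR and at 5.22 and 5.70 in WT, with 6 of 9 probe sets higher. Casp2, an initiator caspase, was at 8.42 and 8.12 against 7.01 and 7.08, with 7 of 13 higher and 2 lower. Both pairs were wide apart, and the Casp2 difference of 1.22 was 0.59 with the mean of the probe sets. The list median over 20 genes was -0.08, or 0.01 without WT replicate 2. Their limma adjusted p were 0.73 and 0.75.

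Among receptors for the niche, Itgb1 and Cxcr4 had 2 of the lower values. Itgb1, an integrin subunit, was at 8.22 and 9.01 in mCG-PR and at 10.03 and 9.70 in WT. Cxcr4, the receptor for Cxcl12, was at 8.98 and 8.37 against 9.99 and 9.48. Both mCG-PR pairs were below their WT pairs, by -1.25 ± 0.38 and -1.06 ± 0.37, in a list of 19 genes with a median of -0.07. With the mean of the probe sets these were -0.75 and -0.59. Notch and Wnt genes had a median of 0.08 over 16, or -0.03 without mCG-PR replicate 1, with Ctnnb1, beta-catenin, at 8.60 and 8.22 against 7.76 and 7.39. Among myeloid transcription factors, 21 genes had a median of -0.01, from -0.10 to 0.11 when 1 array was left out, and Id2, an inhibitor of helix-loop-helix factors, was at 5.69 and 5.84 against 6.82 and 7.08.

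Of the remaining lists, SLAM family receptors gave a median of -0.26 over 6 genes, from -0.45 to -0.12 when 1 array was left out. Mast cell and basophil genes gave -0.27 over 8, but -0.06 without WT replicate 1, -0.001 without WT replicate 2 and -0.05 with the mean of the probe sets. Heat shock genes gave -0.13 over 15 and 0.17 after quantile normalisation. Over all 34 lists, 23 had a median below that of all genes, and WT replicate 2 had the highest mean of the 4 SLAM arrays in 20. Over all tested genes its mean was also the highest, 7.33 against 7.22 in WT replicate 1 and 7.22 and 7.22 in mCG-PR. Some lists share genes, so these counts are not independent.

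**Figure D5:**
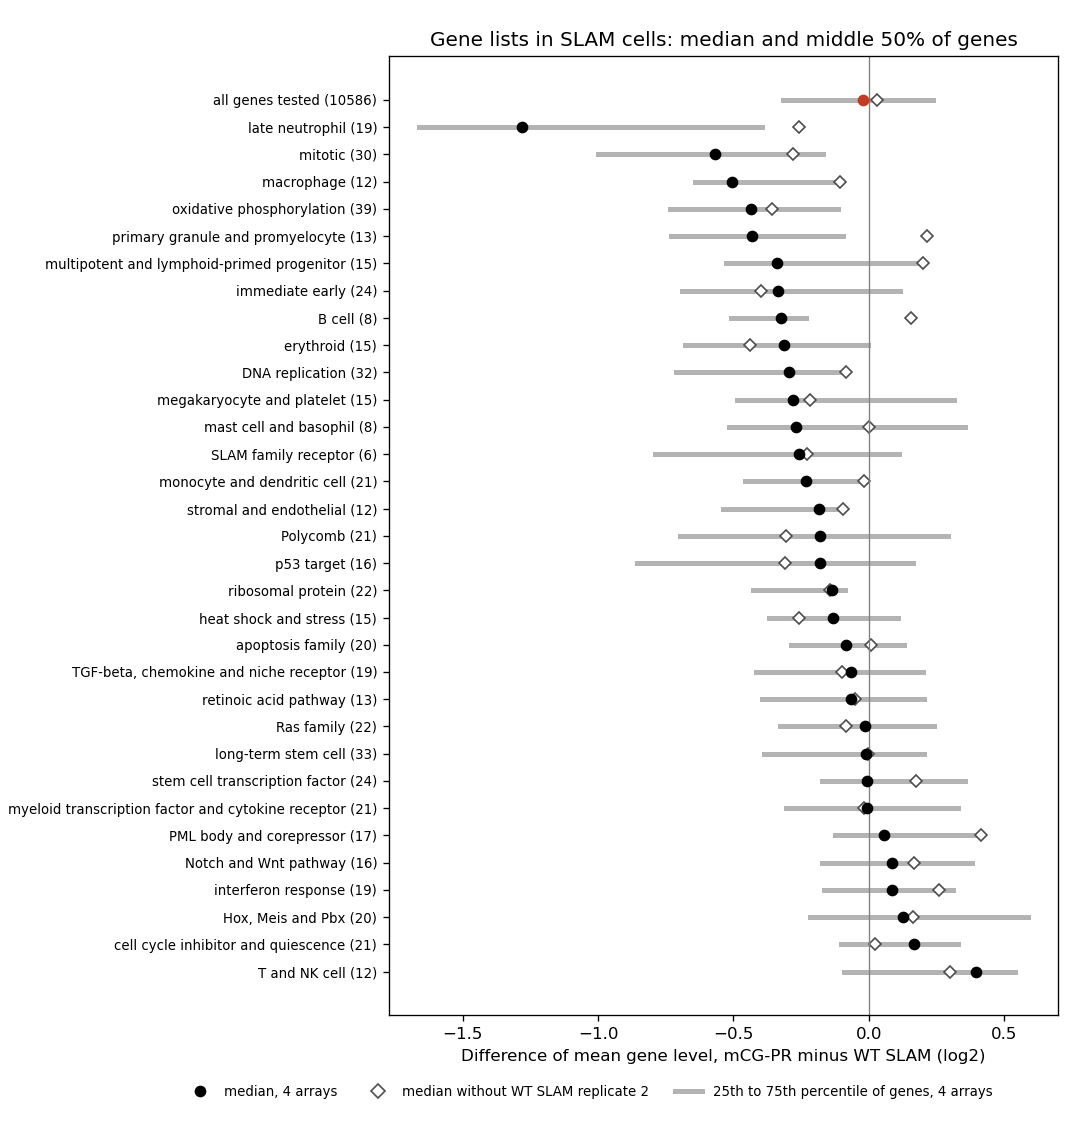
Median difference (mCG-PR minus WT SLAM, log2, x axis) of each gene list with at least 6 tested genes, number tested in brackets, with grey bars between the lower and upper quartile of its genes and open diamonds for the median without WT replicate 2. Late neutrophil genes move from -1.28 to -0.26 without that array, and oxidative phosphorylation genes from -0.44 to -0.36.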

How the data were processed

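RNA from sorted SLAM and KLS cells was hybridised to Affymetrix Mouse Exon 1.0 ST arrays after amplification of 20 ng, per the labels' protocols. The deposited values were linear intensity values per probe set, made by the authors with RMA on the mm9 build, per the submitters' processing notes. The RMA version and options are not given in these sources. Of 229581 probe sets, 208397 named 1 gene and were used, as log2 values; a gene's level was their median, for 15123 genes with at least 3 probe sets (median 11). The filter kept the 10586 genes above the 30th percentile of mean level over all 13 arrays, log2 6.0. A gene that is low in SLAM cells could thus pass by its KLS level. Tests were two-sided in limma (version 3.58.1, under R 4.3.3), with Benjamini-Hochberg over all tested genes and a threshold of 0.05. The genotype fit used the 4 SLAM arrays; the interaction used all 13 with weights by population. Depth has no counterpart in these arrays, and their number limits the precision. The script was checked on simulated data.

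Named genes were the 10 widest gaps in each direction (lowest array of the higher genotype minus highest of the lower), the gate, locus and sex-linked genes, up to 4 genes per list by smallest p and up to 5 per direction by interaction p; a few other list members are named as examples and were chosen after their values were seen. The arrays and the 34 lists were chosen with earlier results of these data known. Alternatives covered the filter, the probe set summary, scaling, a replicate block, the pooling of spread and leaving out each array. Same-numbered replicates did not deviate together (correlation of deviations -0.0309), so the titles' numbers were not taken as pairs.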

Additional observations from a re-analysis of the deposited data

Results flagged for a closer look

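For 2 genes the genotype difference in SLAM cells was not the same as in KLS cells of 6 weeks by limma's test of that difference. Fkbp7 had an interaction of -3.55 ± 0.50 (adjusted p = 0.0386), from -3.68 in SLAM cells and -0.12 in KLS cells. Ogfrl1 had an interaction of -2.99 ± 0.46 (adjusted p = 0.047), from -2.64 in SLAM cells and 0.35 in KLS cells. Over all alternatives run, the adjusted p in limma ranged from 0.00582 to 0.164 for Fkbp7 and from 0.00557 to 0.173 for Ogfrl1. The KLS mice differed in age by genotype, and its part in these values was not tested.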

How the results depend on the processing

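The count of genes past an adjusted p of 0.05 in limma was 0 with no filter, with quantile normalisation, with array medians subtracted, with a trend in the prior variance and when any 1 SLAM array was left out, where it ran from 0 to 0, with 548 to 784 genes at an unadjusted p under 0.05. It was also 0 with a replicate block, with 626 genes at an unadjusted p under 0.05 beside 664 without it. A filter at the 50th percentile and the mean of the probe sets called 1 gene each, Eif2s3y, with adjusted p of 0.043 and 0.0392. The fit on all 13 arrays called 275 and the weighted one 3. The interaction called 2 genes, 107 without weights, and 0 to 4 when 1 SLAM array was left out.

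For 153 named genes, 1896 of 1962 values under the alternatives kept their direction and side of the threshold. Of the rest, 47 passed it only in an alternative and 19 turned sign, and the cause was not tested. The filters, the replicate block, the trend and the fits on all arrays leave a gene's difference unchanged. Its direction could not turn in these. Most named genes were also chosen by gap or p on the same arrays, and none passed in the main fit. The high count was thus largely fixed beforehand and does not measure robustness. With the mean of the probe sets, the differences were -0.48 for Ly6a, 0.51 for Cd34, -0.063 for Hp, -0.066 for Cd7, -0.036 for Atf4, -0.019 for Hes1 and 0.094 for Ddx3x. When 1 array was left out, they ran from -0.27 to 0.51 for Pml, from -0.41 to 0.28 for Rara, from -0.34 to 0.57 for Ly6a, from -1.32 to 0.53 for Cd34, from -1.74 to 0.17 for Ebf1, from -1.04 to 0.088 for Cd79a, from -1.69 to 0.002 for Prss34, from -0.052 to 0.79 for Kdm6a and from -0.014 to 1.87 for Eif2s3x. With 2 mice a genotype and groups that differ in age and Y-linked expression, no genotype effect can be separated from these.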

Other observations

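Within the oxidative phosphorylation list, the 4 subunits of succinate dehydrogenase, the enzyme that joins the citric acid cycle to the respiratory chain, stood on the other side from most of the rest. This set was chosen after its values were seen and was not tested. All 4 were higher in mCG-PR SLAM cells without overlap of the arrays, by 0.62 for Sdha, 0.31 for Sdhb, 0.58 for Sdhc and 0.60 for Sdhd, a median of 0.59. Of the other 35 genes in the list, 5 had a positive and 30 a negative difference, with a median of -0.46, and none was higher without overlap. The 4 subunits were thus all of the list's genes separated in that direction. They make up 10.3% of its 39 tested genes, below the 16.4% of all tested genes.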
